A study of Mus musculus with 10 samples.

Results

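Keratin and *Trim29* transcripts were followed in the mouse first pharyngeal arch (PA1), with and without *Grhl2*. The 9 genes described are *Krt7*, *Krt8*, *Krt18* and *Krt19*, the keratins of simple epithelia, *Krt5*, *Krt14*, *Krt15* and *Krt17*, keratins of basal and stratified epithelia, and *Trim29*. They were selected by name from the 22114 genes counted, *Trim29* because it is among the genes that differ most between these same arches, so their differences are given as a description and carry no test. Each library came from the PA1 of 1 male C57BL/6 embryo at E10.5, 5 wild-type and 5 homozygous for a *Grhl2*-null allele that was kept by intercrossing heterozygotes. The allele is constitutive and not restricted to a tissue. The PA1 forms the upper and lower jaw processes, and it was taken whole, so a value sums a surface epithelium, the mesenchyme beneath it, vessels, blood and nerve. In such bulk RNA, fewer epithelial cells and less keratin RNA per epithelial cell cannot be told apart.

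Keratins are the intermediate filament proteins of epithelial cells. A filament is built from pairs of a type I keratin (here *Krt14*, *Krt15*, *Krt17*, *Krt18* and *Krt19*) and a type II keratin (*Krt5*, *Krt7* and *Krt8*). *Krt8* with *Krt18* is the first keratin pair of the embryo and the usual pair of a single-layered epithelium, while *Krt5* with *Krt14* marks the basal layer once an epithelium prepares to stratify. *Trim29* encodes a TRIM family protein without the RING domain that gives most of its relatives ubiquitin ligase activity, and the protein is known to bind keratin filaments. *Grhl2* encodes a transcription factor of surface epithelia.

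Each library held between 22188454 and 28801378 counted reads, and values are in CPM (counts scaled to library size) after trimmed mean of M-values (TMM) normalization, for which 3 reads in a library correspond to between 0.104 and 0.136 CPM. *Grhl2* itself gave 35.6 ± 3.29 CPM (wild-type) against 4.53 ± 1.45 CPM (*Grhl2*-/-) (SD, n = 5 each), and the groups did not overlap, although reads on this gene remained in every *Grhl2*-/- arch. Arches are named by the embryo and number in their label. The wild-type arches 1-566 and 1-568 stood apart from the other 8 in nerve: 7 sensory neuron markers summed to 41.7 and 37.7 CPM there, against between 433 and 699 CPM in the other wild-type arches and between 236 and 878 CPM in the *Grhl2*-/- arches.

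The start regions of *Krt5* and *Krt14*, partners in 1 filament whose transcripts parted, and of the type II genes *Krt7* and *Krt8*, of which *Krt7* differed more between genotypes, are shown from RefSeq on GRCm38.p6, from 250 bases before to 50 bases after the start of transcription, read 5′ to 3′ along the gene. Capitals mark CACCTG on either strand (CAGGTG where it lies on the other), the core of the E-box bound by ZEB and SNAIL family repressors.
*Krt5* (chr15:101712856-101713155, minus strand): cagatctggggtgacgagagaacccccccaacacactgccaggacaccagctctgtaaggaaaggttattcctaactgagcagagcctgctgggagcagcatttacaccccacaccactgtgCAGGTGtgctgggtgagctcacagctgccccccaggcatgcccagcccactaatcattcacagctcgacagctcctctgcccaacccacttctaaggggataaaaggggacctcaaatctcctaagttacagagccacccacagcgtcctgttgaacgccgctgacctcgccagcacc
*Krt14* (chr11:100205981-100206280, minus strand): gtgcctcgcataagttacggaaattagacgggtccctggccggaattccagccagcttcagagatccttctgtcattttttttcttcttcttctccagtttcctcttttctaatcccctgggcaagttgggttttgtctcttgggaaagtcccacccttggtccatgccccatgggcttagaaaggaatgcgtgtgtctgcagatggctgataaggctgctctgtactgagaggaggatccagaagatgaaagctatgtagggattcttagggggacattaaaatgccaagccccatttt
*Krt7* (chr15:101412153-101412452, plus strand): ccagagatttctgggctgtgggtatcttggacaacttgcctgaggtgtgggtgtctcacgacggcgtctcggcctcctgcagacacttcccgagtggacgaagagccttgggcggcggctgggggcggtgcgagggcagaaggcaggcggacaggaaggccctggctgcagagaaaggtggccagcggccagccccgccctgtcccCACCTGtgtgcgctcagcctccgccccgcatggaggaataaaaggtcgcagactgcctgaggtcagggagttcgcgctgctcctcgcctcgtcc
*Krt8* (chr15:102004293-102004592, minus strand): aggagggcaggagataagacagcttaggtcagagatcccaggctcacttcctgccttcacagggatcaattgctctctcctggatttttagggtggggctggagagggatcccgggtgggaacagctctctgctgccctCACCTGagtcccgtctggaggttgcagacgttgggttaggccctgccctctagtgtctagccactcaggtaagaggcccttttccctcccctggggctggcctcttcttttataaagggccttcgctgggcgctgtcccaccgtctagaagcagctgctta
Promoters of 5 of the 9 genes were in the table used, these 4 and *Krt18*. The letters CACCTG stood once each in *Krt5* (at -128), *Krt7* (at -44), *Krt8* (at -111) and *Krt18* (at -214) and not in the window of *Krt14*, and 20.2% of all 32851 promoters of that length held them. The grainyhead-like consensus AACCGGTT stood in none of the 5 windows and in 0.146% of all promoters, searched on both strands. The palindrome GCCNNNGGC, recognized by AP-2 factors, stood in *Krt7* (at -146 and -70) and *Krt18* (at -83) and in 16.6% of all promoters, and none of its matches overlapped a CACCTG. These are matches of letters, not sites, and no letters in a window say nothing of binding elsewhere. The windows of *Krt7* and *Krt14* lie inside the spans that GENCODE gives these genes, downstream of the outermost start. The starts used for *Krt8* and *Krt18* also lie downstream of the GENCODE starts, and the CACCTG of *Krt8* falls inside the GENCODE span.

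On GRCm38 with GENCODE release 21, *Krt15* (chr11:100131758-100135928), *Krt19* (chr11:100140810-100148665), *Krt14* (chr11:100203162-100207548) and *Krt17* (chr11:100256217-100261029) lie on the minus strand in the type I cluster. In the type II cluster are *Krt7* (chr15:101411043-101430313, plus strand), *Krt5* (chr15:101707070-101712898, minus strand) and *Krt8* (chr15:101996698-102004482, minus strand), and *Krt18* (chr15:102028180-102032027, plus strand), although of type I, lies beside *Krt8*. *Trim29* is at chr9:43310848-43336115 on the plus strand. Counts are over the exons of each gene, untranslated exons included.

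**Figure D1:**
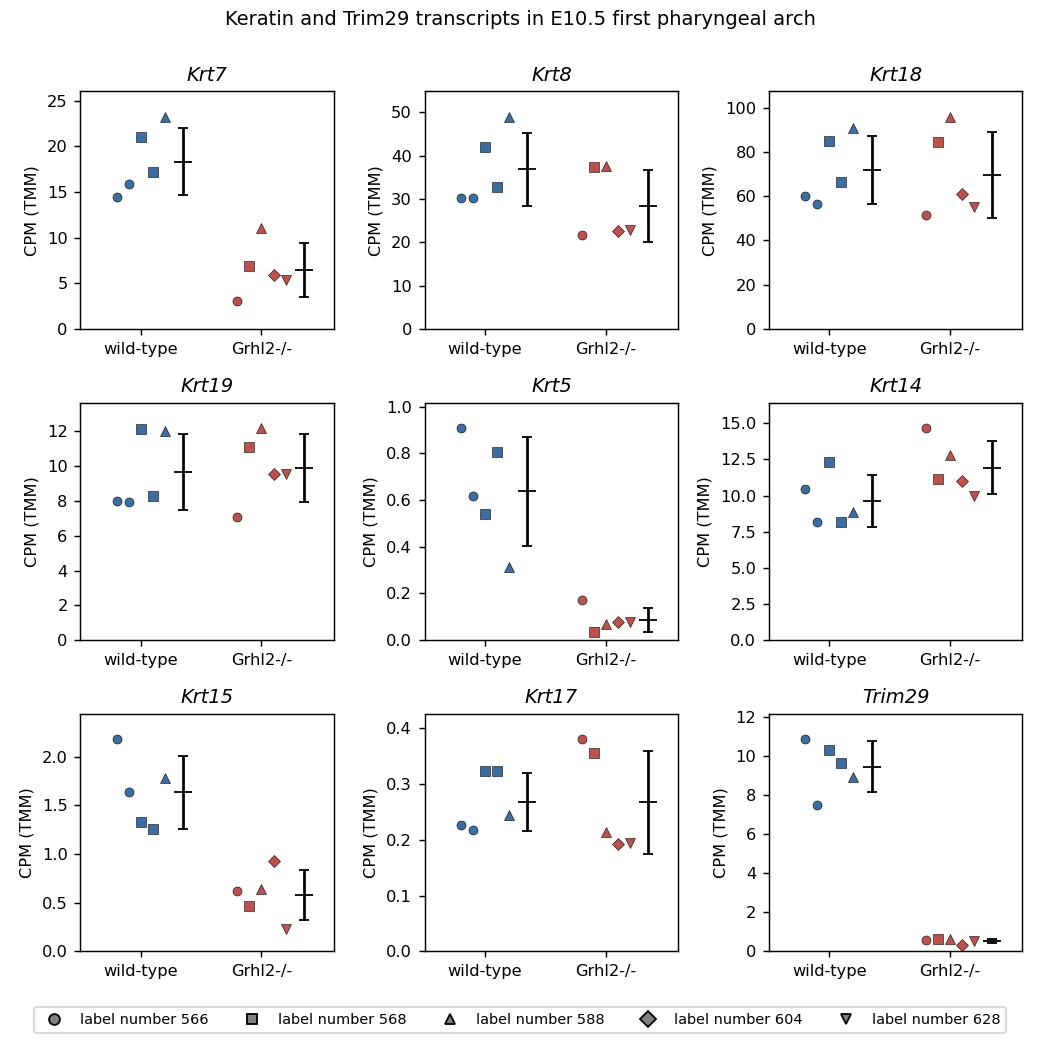
TMM-normalized CPM (linear axis from 0) of each keratin and of *Trim29* in the 5 wild-type (blue) and 5 *Grhl2*-/- (red) arches, with the mean and SD of each genotype as a bar and the label number as the symbol. The groups do not overlap for *Krt7*, *Krt5*, *Krt15* and *Trim29* and overlap for the other 5 genes.

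Among the keratins of simple epithelia, *Krt7* was lower in *Grhl2*-/- PA1 while *Krt18* and *Krt19* stood at nearly the same level. *Krt18*, the type I keratin of the embryo's first filaments, was the most abundant member with 71.8 ± 15.4 CPM where *Grhl2* was intact and 69.6 ± 19.4 CPM where it was lost (SD, n = 5 each). The wild-type arches 1-566, 5-566, 1-568, 8-568 and 3-588 held 59.96, 56.6, 85.1, 66.5 and 90.9 CPM of *Krt18*, and the *Grhl2*-/- arches 2-566, 2-568, 1-588, 3-604 and 1-628 held 51.6, 84.4, 95.8, 61.1 and 55.1 CPM. The highest arch of all was *Grhl2*-/- and the groups overlapped over most of their range, with a log2 fold change of -0.07 (SE 0.188, 95% interval -0.48 to 0.35).

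*Krt8*, its type II partner, read 30.2, 30.2, 41.9, 32.7 and 48.9 CPM across the wild-type arches in the same order and 21.7, 37.4, 37.7, 22.5 and 22.7 CPM in the *Grhl2*-/- arches. Of the *Grhl2*-/- arches, 3 lay below every wild-type arch and the other 2 lay among them. The means were 36.8 ± 8.31 and 28.4 ± 8.33 CPM, and the log2 fold change was -0.40 (SE 0.195, 95% interval -0.83 to 0.03).

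*Krt7*, a type II keratin of ducts and other simple linings, reached 14.4, 15.9, 21.0, 17.2 and 23.2 CPM across the wild-type arches and 3.05, 6.94, 11.1, 5.87 and 5.38 CPM in the *Grhl2*-/- arches. The highest *Grhl2*-/- arch, 1-588, lay below the lowest wild-type arch, 1-566. The means were 18.3 ± 3.65 and 6.47 ± 2.95 CPM, a log2 fold change of -1.62 (SE 0.260, 95% interval -2.19 to -1.05).

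*Krt19*, the small type I keratin without a tail domain, came to 7.99, 7.96, 12.1, 8.28 and 12.02 CPM across the wild-type arches and 7.10, 11.1, 12.2, 9.54 and 9.53 CPM in the *Grhl2*-/- arches. Both the lowest and the highest arch were *Grhl2*-/-, and the log2 fold change was 0.02 (SE 0.173, 95% interval -0.36 to 0.40).

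Among the keratins of basal and stratified epithelia, *Krt5* and *Krt15* were lower and *Krt14* was not. *Krt5*, the type II keratin of basal cells, was barely present even in wild-type arches, with 20, 17, 15, 20 and 9 reads. The *Grhl2*-/- arches held 5, 1, 2, 2 and 2 reads, so 4 of them were under the floor of 3 reads. In CPM the means were 0.637 ± 0.233 and 0.0869 ± 0.0512. Pooled over arches, 81 reads stood against 12, a ratio of 7.06 after normalization (95% interval 3.83 to 14.2, counting error only), and the fitted log2 fold change was -2.64 (SE 0.440, 95% interval -3.61 to -1.68), a value that depends on the prior count and is no bound, since the *Grhl2*-/- mean lay under the floor.

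*Krt14*, the type I partner of *Krt5*, came to 10.49, 8.14, 12.3, 8.16 and 8.89 CPM across the wild-type arches and 14.7, 11.1, 12.8, 11.04 and 9.995 CPM in the *Grhl2*-/- arches. The wild-type arches 1-566 and 1-568 lay within the range of the *Grhl2*-/- arches and the other 3 lay below it. The means were 9.60 ± 1.80 and 11.9 ± 1.84 CPM, and the log2 fold change was 0.33 (SE 0.137, 95% interval 0.03 to 0.63), the only member whose interval lay above 0.

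*Krt15*, a type I keratin of basal keratinocytes, had 48, 45, 37, 31 and 51 reads per wild-type arch against 18, 13, 18, 24 and 6 reads in the *Grhl2*-/- arches. The groups did not overlap, at 1.64 ± 0.373 and 0.577 ± 0.255 CPM, with a log2 fold change of -1.56 (SE 0.303, 95% interval -2.22 to -0.89). *Krt17*, a type I keratin of periderm, appendages and wounded epidermis, had between 5 and 11 reads in every arch, with group means of 0.267 ± 0.0521 CPM (wild-type) against 0.267 ± 0.0928 CPM (*Grhl2*-/-). Its log2 fold change was -0.03 (SE 0.288, 95% interval -0.66 to 0.60), and the pooled ratio of 35 to 37 reads was 0.989 after normalization (95% interval 0.605 to 1.61, counting error only), so differences within these bounds were not detectable at this depth.

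*Trim29* had the widest separation of the 9 genes. Wild-type libraries held 239, 206, 287, 238 and 256 reads (10.9, 7.49, 10.3, 9.61 and 8.92 CPM) and the *Grhl2*-/- arches held 17, 17, 17, 9 and 14 reads (0.588, 0.605, 0.606, 0.348 and 0.542 CPM). Even the lowest wild-type arch, 5-566, lay far above the highest *Grhl2*-/- arch, 1-588. The means were 9.44 ± 1.31 and 0.538 ± 0.110 CPM, a log2 fold change of -4.09 (SE 0.234, 95% interval -4.60 to -3.58), or 17.0-fold lower. Every *Grhl2*-/- arch still held at least 9 reads of *Trim29*, above the floor of 3 reads.

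With limma-voom at an FDR below 0.01, 3 of the 9 members (*Krt7*, *Krt5* and *Trim29*) were among the genes called lower in *Grhl2*-/- PA1, which made up 1.09% of the 14561 genes tested. None of the 9 was called higher by limma-voom, against 0.879% of all genes. Nor was any by edgeR or DESeq2, which called 142 and 520 of the 14561 genes higher. The arches of the genotypes did not overlap for 4 members, against 8.88% of all genes, and 7 of the 9 log2 fold changes were below 0, with a median of -0.40 against 0.01 over all genes tested. DESeq2, and limma-voom at an FDR below 0.05, each called *Krt15* as well, where they called 553 and 564 of all genes lower. These counts describe genes selected on this contrast and nothing is read from them. Of the 10 fits that left out 1 arch each, *Trim29* was called in 10 (log2 fold change between -4.17 and -3.96), *Krt7* in 4 and *Krt5* in 2, which describes how far these calls rest on single arches and is no support for genes selected on them. Without wild-type arch 1-568 or 8-568, or without *Grhl2*-/- arch 2-568, 3-604 or 1-628, *Trim29* was the 1 member called, and so it was without the wild-type arches 1-566 and 1-568 together.

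**Figure D2:**
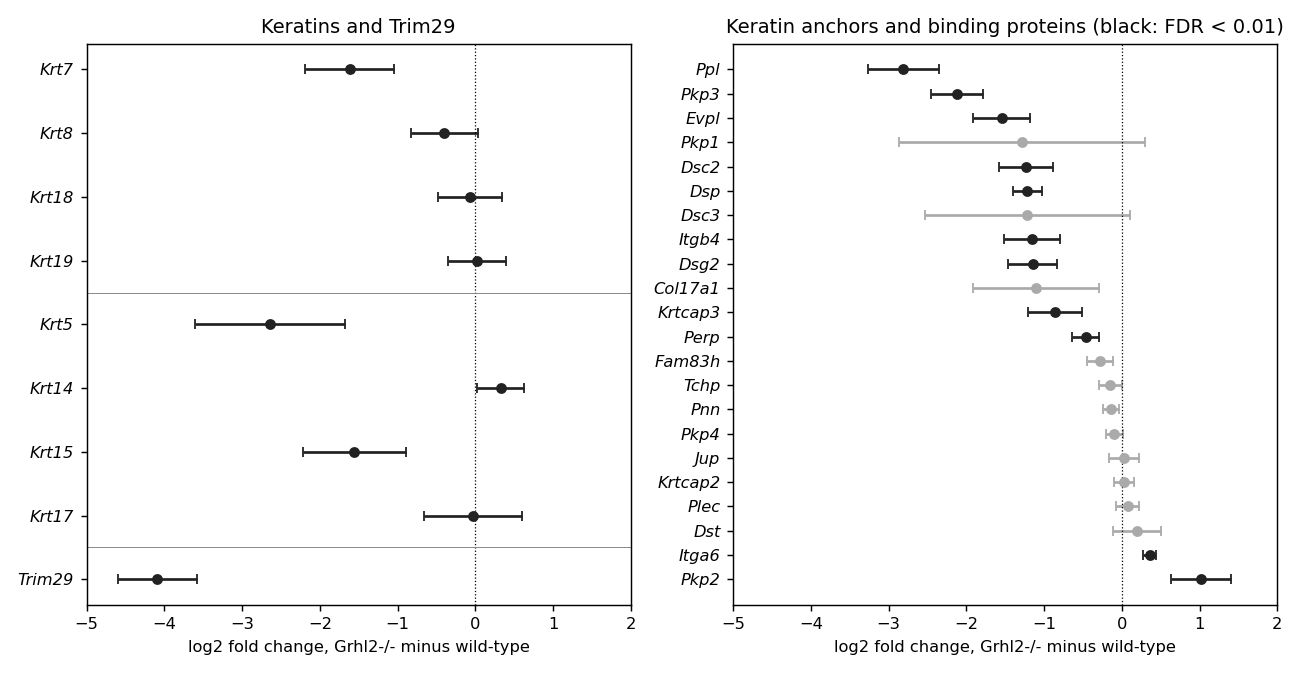
Log2 fold change (*Grhl2*-/- minus wild-type, limma-voom) with its 95% interval for the keratins and *Trim29* on the left and for the 22 keratin anchors and binding proteins tested on the right, where black marks an FDR below 0.01. *Trim29* is lowest at -4.09, *Krt18*, *Krt19* and *Krt17* lie near 0, and among the anchors *Ppl* is lowest at -2.81 and *Pkp2* highest at 1.02.

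The 3 type II genes, *Krt5*, *Krt7* and *Krt8*, all had lower means in *Grhl2*-/- arches and the 5 type I genes did not share a direction. The ratios that follow were formed after this was seen and restate it within each arch, as a description. Reads of the 5 type I genes per read of the 3 type II genes stood at 1.67 ± 0.0921 in wild-type arches (between 1.57 and 1.78) and at 2.69 ± 0.247 in *Grhl2*-/- arches (between 2.42 and 2.98), with no overlap. The ratio needs no normalization, since both counts come from 1 library, but it depends on the lengths of the transcripts and its absolute size is therefore not a ratio of molecules. *Krt18* reads per *Krt8* read were 1.96 ± 0.0856 (between 1.86 and 2.03) against 2.46 ± 0.174 (between 2.26 and 2.72), again without overlap, although neither gene alone separated the groups. *Krt7* reads per *Krt8* read were 0.501 ± 0.0253 against 0.224 ± 0.0612, so *Krt7* was lower relative to *Krt8* as well as relative to the library.

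*Krt5* reads per *Krt14* read were 0.0681 ± 0.0275 in wild-type and 0.00706 ± 0.00317 in *Grhl2*-/- arches. *Krt14* reads per *Krt8* read were 0.269 ± 0.0608 against 0.449 ± 0.148 and overlapped, while *Krt19* reads per *Krt8* read were 0.263 ± 0.0164 against 0.358 ± 0.0587 and did not. The 8 keratins summed to 148.7 ± 29.7 CPM (wild-type) against 127.2 ± 32.0 CPM (*Grhl2*-/-), between 121.3 and 186.3 CPM against between 99.3 and 170.5 CPM. *Krt8* and *Krt18* together made up 72.8% ± 1.51 of these keratin reads in wild-type arches and 76.6% ± 2.59 in *Grhl2*-/- arches.

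**Figure D3:**
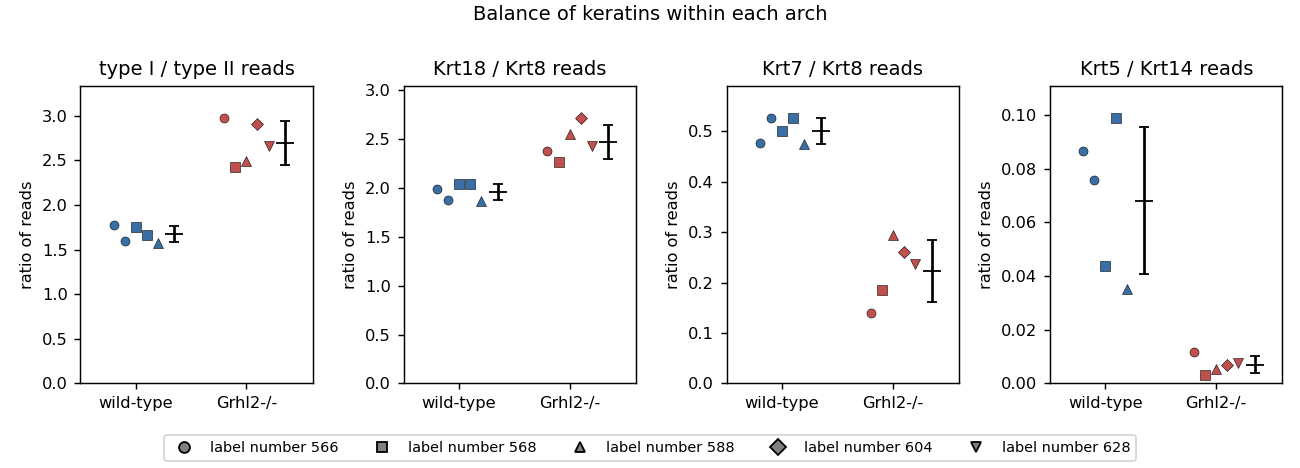
Ratios of reads within each arch (linear axes from 0) for type I per type II, *Krt18* per *Krt8*, *Krt7* per *Krt8* and *Krt5* per *Krt14*, wild-type in blue and *Grhl2*-/- in red, with mean and SD as bars. None of the 4 ratios overlaps between genotypes, and the mean of type I per type II is 1.67 in wild-type and 2.69 in *Grhl2*-/- arches.

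Levels of different genes were compared per kilobase of exon (CPM divided by the summed length of the gene's exons). In wild-type arches *Krt18* led at 49.97 ± 10.7, followed by *Krt8* at 18.8 ± 4.24, *Krt14* at 5.46 ± 1.02 and *Krt19* at 5.22 ± 1.18 CPM per kilobase. *Trim29* at 2.72 ± 0.378 and *Krt7* at 2.60 ± 0.518 came next, ahead of *Krt15* at 0.925 ± 0.211, *Krt5* at 0.290 ± 0.106 and *Krt17* at 0.172 ± 0.0336 CPM per kilobase. *Krt14* exceeded *Krt19* in 4 of 5 arches, *Trim29* exceeded *Krt7* in 2 of 5 and *Krt5* exceeded *Krt17* in 4 of 5, so these neighbours did not differ beyond their spread, whereas every other neighbour was ordered alike in all 5 arches. The exons of *Krt7* in GENCODE add up to 7049 bases, more than its longest transcript of 4094 bases, and with the longest transcript as the length *Krt7* stood at 4.48 and *Trim29* at 3.45 CPM per kilobase, with *Krt7* higher in 4 of 5 arches, and *Krt19* passed *Krt14*.

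In *Grhl2*-/- arches *Krt18* (48.4 ± 13.5), *Krt8* (14.5 ± 4.25), *Krt14* (6.79 ± 1.05) and *Krt19* (5.34 ± 1.04 CPM per kilobase) led in that order, *Krt14* above *Krt19* in all 5 arches. *Trim29*, at 0.155 ± 0.0315 CPM per kilobase, lay below *Krt15* (0.327 ± 0.144) and beside *Krt17* (0.172 ± 0.0599), which exceeded it in 3 of 5 arches. *Krt5* was last at 0.0396 ± 0.0233 CPM per kilobase. With the longest transcript as the length, mean *Krt14* (7.03) stayed above mean *Krt19* (6.28 CPM per kilobase), but not in every arch. The mean of *Trim29* (0.197) then lay above that of *Krt17* (0.172 CPM per kilobase).

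The keratins of simple epithelia varied together among arches of the same genotype. The wild-type arches 1-568 and 3-588 and the *Grhl2*-/- arches 2-568 and 1-588 were the highest of their genotype for each of *Krt7*, *Krt8*, *Krt18* and *Krt19*. Over the 10 arches, deviations of log2 CPM from the genotype mean correlated at 0.97 between *Krt8* and *Krt18* and at 0.81 or more between any pair of the 4 genes (Pearson, a description over arches that share dissection, depth and normalization). *Krt5* ran the other way, at between -0.72 and -0.82 with each of the 4, from at most 20 reads an arch. In most *Grhl2*-/- arches it had 1 or 2 reads, under the floor of 3, where its deviations depend on the prior count. Nothing is read from these correlations of *Krt5*. *Krt14*, *Krt15*, *Krt17* and *Trim29* did not follow the 4 genes closely, with *Trim29* at 0.37 with *Krt8* and *Krt15* at -0.01. Summed sensory neuron markers were lowest among *Grhl2*-/- arches in the 2 arches with most *Krt8* (258 and 236 CPM in 2-568 and 1-588, against between 625 and 878 CPM in the others), while in wild-type arches they were 37.7 CPM in 1-568 and 433 CPM in 3-588. The wild-type arch 1-568 shares its label number with *Grhl2*-/- 2-568, and wild-type 3-588 with *Grhl2*-/- 1-588. Wild-type 8-568 was not among the highest. The parts of the label number and of the dissection in this variation were not tested.

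Of 12691 other genes with a mean of at least 1 CPM, those whose deviations were most like *Krt8* were *Krt18* (0.97), *Slc20a2* (0.96) and *Klk8* (0.96). Those most like *Trim29* were *Snx13*, *Syne3* and *Plac1* (each 0.92), and those most like *Krt5* were *Abhd5* (0.96), *Tox3* (0.92) and *Myb* (0.92). With 1 or 2 reads of *Krt5* in most *Grhl2*-/- arches, its ranking depends on the prior count and nothing is read from it. These are the top of a long ranking over 10 arches and carry no test.

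**Figure D4:**
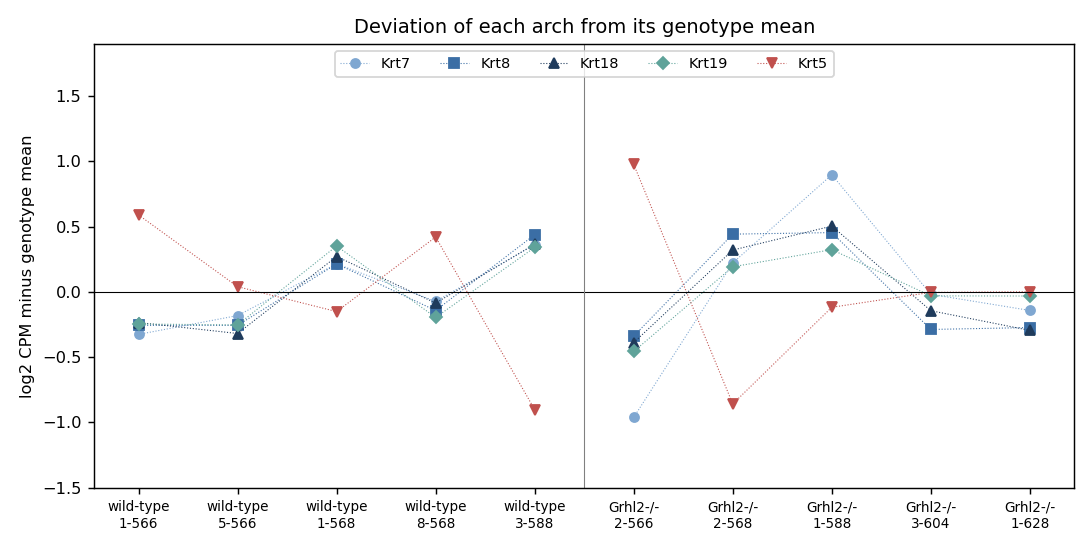
Deviation of log2 CPM from the genotype mean for *Krt7*, *Krt8*, *Krt18*, *Krt19* (blue and green) and *Krt5* (red) in each of the 10 arches, where dotted lines only join the points of a gene and the arches have no order. The 4 simple keratins are highest in wild-type 1-568 and 3-588 and in *Grhl2*-/- 2-568 and 1-588. The *Krt5* points of the *Grhl2*-/- arches rest on 1 to 5 reads each.

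The label numbers 566, 568 and 588 were shared by arches of both genotypes. Within them, mean log2 CPM of *Trim29* in the *Grhl2*-/- arch minus that in the wild-type arches was -3.90, -4.00 and -3.84, that of *Krt15* -1.58, -1.45 and -1.44, and that of *Krt7* -2.31, -1.45 and -1.06. *Krt14* differed by 0.67, 0.15 and 0.53. No difference is given for *Krt5*, which had 5, 1 and 2 reads in these *Grhl2*-/- arches. *Krt8* differed by -0.47, 0.01 and -0.38 and *Krt18* by -0.17, 0.17 and 0.08, with no common direction. Each number held 1 *Grhl2*-/- arch, so these are values with no test, and what the number stands for is not stated in the labels.

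Few reads fell on most of the other keratins. Of the 51 keratin genes in the table, 15 had no read in any arch, which allows up to 0.136 CPM in the shallowest library, and 39 had too few reads to be tested. Besides the 8 members, 4 were tested, and limma-voom called none of them at an FDR below 0.01. At an unadjusted p below 0.05 were 0 of them, against 4146 of all 14561 genes tested. *Krt10*, a type I keratin of suprabasal epidermis, averaged 2.22 ± 0.383 CPM against 1.91 ± 0.214 CPM without *Grhl2* (log2 fold change -0.19, FDR = 0.418). *Krt1*, its type II partner, stood at 0.321 ± 0.0837 and 0.327 ± 0.0982 CPM (0.02, FDR = 0.977). *Krt20*, known from gut lining and Merkel cells, and *Krt222*, a keratin-like gene, differed by 0.87 (FDR = 0.183) and 0.64 (FDR = 0.226) on the log2 scale. The periderm keratins *Krt6a* and *Krt13* were under 3 reads in every arch.

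**Figure D5:**
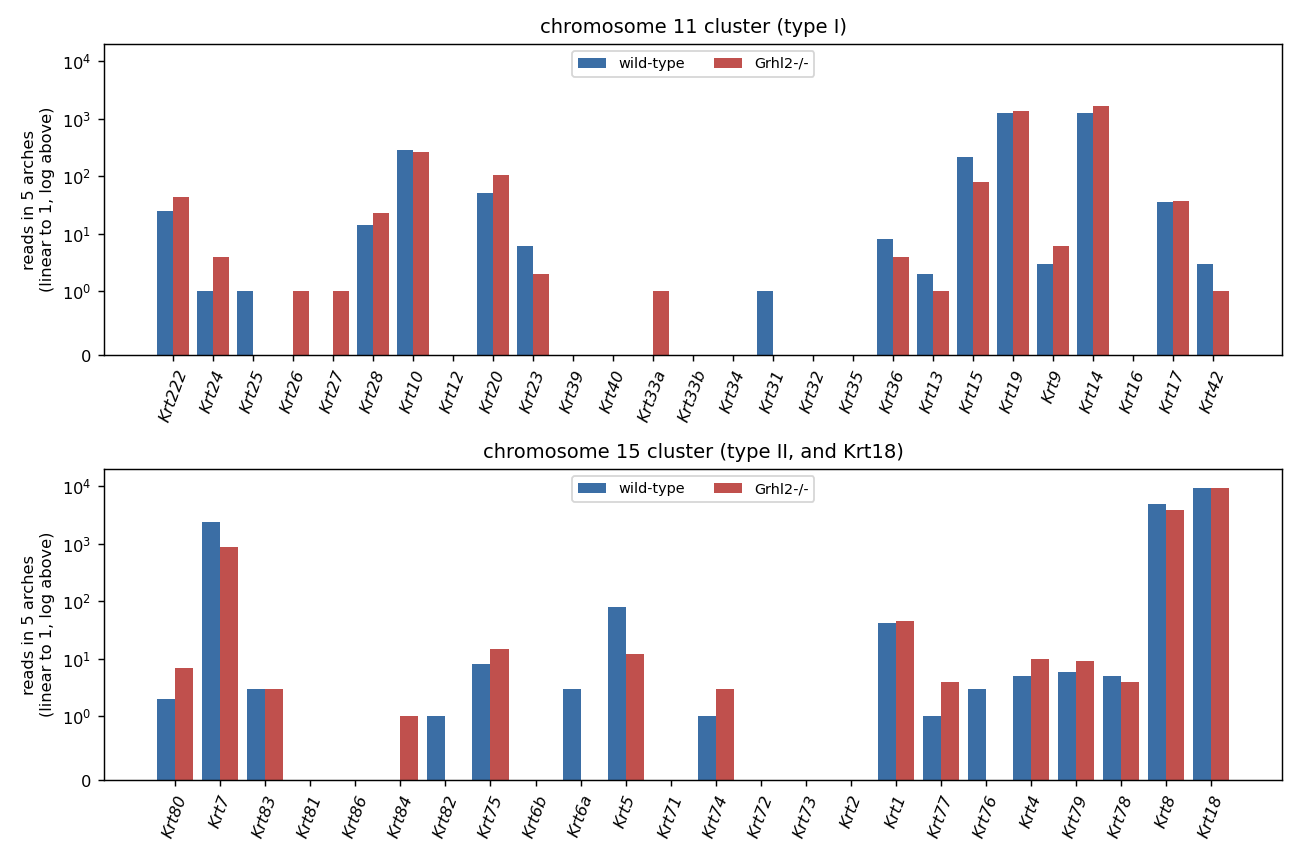
Reads summed over the 5 wild-type (blue) and 5 *Grhl2*-/- (red) arches for each of the 51 keratin genes in their order along the type I and type II clusters (symmetric log axis, linear up to 1 read, with no bar for 0 reads). *Krt18* and *Krt8* lead, and 15 genes have no read.

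Of 17 other intermediate filament genes tested with limma-voom, 0 were lower and 1 was higher at an FDR below 0.01, with 5 at an unadjusted p below 0.05. Over all genes tested, 1.09% were lower, 0.879% were higher and 4146 of 14561 were at an unadjusted p below 0.05. The log2 fold changes of the 17 were below 0 in 7 and had a median of 0.46, against 0.01 over all genes. *Nes*, which encodes nestin of progenitor cells, rose by 0.40 on the log2 scale (SE 0.0702, FDR = 0.00702), with 154 ± 14.9 CPM with and 203 ± 15.01 CPM without *Grhl2*. Of the 10 fits that left out 1 arch, 2 called a gene of this list (without wild-type 5-566 and without *Grhl2*-/- 2-568). *Vim*, the vimentin of mesenchyme, was at 290 ± 82.4 and 443 ± 73.4 CPM (0.64, FDR = 0.0535), its groups overlapping. The neuronal genes *Nefl*, *Nefm*, *Prph* and *Ina* had log2 fold changes between 2.06 and 2.79 that did not pass, and the 2 wild-type arches low in sensory neuron markers were also the lowest in *Nefl*.

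Other genes encode proteins that tie keratin filaments to desmosomes and hemidesmosomes, or bind them otherwise. Of 22 such genes tested, 9 fell, 2 rose and 11 did not pass at an FDR below 0.01 (limma-voom), with a median log2 fold change of -0.66, against 1.09% lower and 0.879% higher over all genes tested. The list was chosen with earlier results of these arches known. *Ppl* (periplakin) and *Evpl* (envoplakin), which link keratins to the cornified envelope and desmosome, fell by 2.81 (FDR = 1.6e-05) and 1.55 (FDR = 0.000318) on the log2 scale. *Dsp*, the desmoplakin that anchors keratin filaments at every desmosome, fell by 1.22 on the log2 scale (SE 0.0849, FDR = 1.04e-05), to 44.2 ± 4.76 CPM from 103 ± 10.4 CPM. *Pkp3*, a plakophilin of the desmosomal plaque, fell by 2.11 (FDR = 1.37e-05), *Dsc2*, a desmosomal cadherin, by 1.23 (FDR = 0.00106), and *Itgb4*, the hemidesmosome integrin, by 1.15 (FDR = 0.00221).

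*Pkp2*, another plakophilin, rose by 1.02 on the log2 scale (FDR = 0.00672), to 15.6 ± 2.50 CPM from 7.71 ± 2.12 CPM, and *Itga6*, the partner of *Itgb4* that other cells also carry, rose by 0.36 (FDR = 0.000461). Of the 10 fits that left out 1 arch, 8 called 1 of these 2 genes rather than both, all but those without wild-type 3-588 and without *Grhl2*-/- 2-566. *Jup* (plakoglobin) at 51.7 ± 6.32 and 52.4 ± 4.42 CPM and *Plec* (plectin) at 158 ± 13.2 and 166 ± 12.8 CPM did not pass (FDR = 0.882 and 0.479). The fall of *Dsp* by 1.22 stood beside *Krt8* at -0.40 and *Krt18* at -0.07. The difference between these genes was not tested.

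Of 25 transcription factors and regulators of surface epithelia tested, 6 fell and 0 rose (limma-voom, 2 higher with DESeq2), against 1.09% lower and 0.879% higher over all genes tested, and 14 were at an unadjusted p below 0.05, against 4146 of all 14561. They were *Grhl2* itself (-3.02, FDR = 2.67e-06), *Ovol1* (FDR = 0.00152) and *Ovol2* (FDR = 0.00102), which encode repressors of mesenchymal genes, *Kdf1* (-2.12, FDR = 0.000236), *Tfap2c* (-0.99, FDR = 0.000791) and *Elf5* (FDR = 0.00798). The *Grhl2*-/- means of *Ovol1* (0.0645 CPM), *Ovol2* (0.0750 CPM) and *Elf5* (0.0291 CPM) lay under the floor of 3 reads, against 0.888, 1.09 and 0.366 CPM in wild-type arches, so no fold is given for them. *Trp63*, the p63 factor that drives *Krt5* and *Krt14* in basal cells, was at 73.1 ± 5.78 and 61.9 ± 5.31 CPM (-0.24, FDR = 0.0566). Of 6 genes of stratification and cornification tested, 2 fell, *Sfn* (-1.42, FDR = 0.000499) and *Lypd3* (FDR = 0.00586), the latter from at most 0.454 CPM to under the floor, and none rose, against the same 1.09% lower over all genes. Of the 10 fits that left out 1 arch, 7 called 1 of these genes rather than 2, all but those without wild-type 1-568 or 3-588 and without *Grhl2*-/- 2-566.

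Epithelial markers moved with genotype too. The 7 epithelial markers summed to 264 to 328 CPM (wild-type) against 125 to 179 CPM (*Grhl2*-/-). Of the 7, 4 passed the test, all lower, *Cdh1* (E-cadherin, -2.47, FDR = 1.66e-05) and *Epcam* (-2.51, FDR = 1.04e-05) among them. Over all genes tested, 1.09% were lower and 0.879% higher, the shares for every marker count in this paragraph. *Trp63* and *Tfap2a* (11.7 ± 1.42 and 13.3 ± 2.76 CPM) did not pass. Arch mesenchyme markers summed to between 1605 and 2130 CPM in wild-type and between 1445 and 1709 CPM in *Grhl2*-/- arches (1 of 7 lower), and endothelial markers to between 330 and 371 CPM and between 367 and 426 CPM (0 of 6 called). Blood markers summed to between 3627 and 6162 CPM in wild-type and between 2855 and 3862 CPM in *Grhl2*-/- arches (0 of 5 called). Periderm markers, a list that itself holds *Krt17* and *Krt18*, summed to between 66.4 and 101 CPM and between 56.0 and 100.2 CPM, with 2 of 4 tested lower. Neural tube markers summed to at most 7.98 CPM in wild-type arches and between 3.70 and 40.7 CPM in *Grhl2*-/- arches, the highest being 1-588, an arch with high *Krt8*. No gene of these lists was at 0 reads in all arches. The part of cell composition in the keratin differences was not tested.

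Of the other 45 TRIM family genes tested, limma-voom called 0 at an FDR below 0.01, against 1.09% lower and 0.879% higher over all genes. At an unadjusted p below 0.05 were 10 of them, against 4146 of all 14561. Their median log2 fold change was 0.07, against 0.01 over all genes. DESeq2 called 1 lower and 1 higher, against 553 and 520 of all genes. At an FDR below 0.05, where 564 of all genes were lower and 559 higher, limma-voom added *Trim27* (-0.19, FDR = 0.0328) and *Trim44* (0.18, FDR = 0.0344). Each had a difference of under 0.2 on the log2 scale. Of 11 genes for proteins and pathways that TRIM29 is known to act on, such as *Trp53*, *Ctnnb1* and *Kat5*, 0 were called, 1 was at an unadjusted p below 0.05, and fold changes on the log2 scale lay between -0.31 and 0.11. That 1 was *Tmem173*, which encodes the DNA sensor adaptor STING, at 12.1 ± 1.01 and 9.75 ± 0.845 CPM (-0.31, FDR = 0.0458).

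Some keratin reads cannot be placed with certainty. Of the 50-base stretches of the longest transcript, as long as the reads, 29.7% of those of *Krt8* also occur in another annotated gene, mostly the pseudogene *Krt8-ps*, and so do 14.4% for *Krt14* (*Krt16* and *Krt17*), 12.2% for *Krt5* (*Krt6a*, *Krt6b* and predicted genes), 3.99% for *Krt17*, and under 1% for *Krt18*, *Krt15* and *Krt7*. None of those of *Krt19* and *Trim29* do. The shares of *Krt8* and *Krt5* include 53 and 80 stretches that match *Gm36026* and *Gm44323* on the opposite strand of the same locus. How the count treated reads from shared stretches is not given in the sources used here. The levels of *Krt8*, *Krt14* and *Krt5* are therefore uncertain, by an amount that these shares do not give. On the opposite strand, *Krt7* overlaps the antisense gene *Gm671*, *Krt8* the noncoding gene *Gm36026* and *Krt5* the predicted miRNA gene *Gm44323*. The libraries were stranded and the deposited table is named as a count of the reverse strand, while the study's methods do not state the strand setting.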

How the data were processed

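The authors sequenced 10 arches, 5 per genotype, as stranded total RNA libraries (ribosomal RNA removed) with single-end reads of 50 bases over 3 lanes. Alignment was to GRCm38 with STAR, and the deposited values are featureCounts counts per gene, raw, for 22114 genes. The submitters' processing notes also name edgeR 3.18.1 and limma 3.32.7. A second deposited table holds the authors' own comparison (fold changes, adjusted p-values and average expression) and was not used here.

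Of the counted genes, 14561 reached 10 counts in some arch and entered the fit. TMM scaling (edgeR 4.0.16), voom and a moderated linear model (limma 3.58.1, R 4.3.3) with genotype as the sole term gave fold changes, and p-values were adjusted by Benjamini and Hochberg over those genes, with calls at an FDR below 0.01. CPM are means ± SD over 5 arches, and log2 CPM carry a prior count of 0.5. Each arch is 1 embryo. Intervals of fold changes are limma's at 95%, and those of pooled reads are exact binomial ones for counting error only. Depth was between 22188454 and 28801378 counted reads per arch.

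The members and the gene lists were chosen with earlier results of these data known. Named are all 9 members, in every other list each gene past the FDR or the 6 with the largest absolute log2 fold change where more pass, the other keratins tested, and the 3 genes most like *Krt8*, *Krt5* and *Trim29*. Genes beyond this rule (*Pkp2*, *Itga6*, *Vim*, *Nefl*, *Nefm*, *Prph*, *Ina*, *Jup*, *Plec*, *Trp63*, *Trim27*, *Trim44*, *Tmem173* and markers) were chosen after their values were seen. As alternatives, the fit was repeated with edgeR's quasi-likelihood model, DESeq2 1.42.0, other scalings and filters, quality weights, the label number as a replicate block, another FDR, and without single arches. Leaving out 2 arches low in sensory neuron markers, and the principal transcript as a length, were added after seeing the data. The methods were tested on simulated data. Exon lengths are from GENCODE release 21. The values of 1 gene of the lists are not reported here.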

Additional observations from a re-analysis of the deposited data

Results flagged for a closer look

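Within a genotype, 1 of 52 groups of 5 arches had an arch far from the others. In *Grhl2*-/- PA1 the log2 CPM of *Trim29* was -1.45 in arch 3-604, against -0.83 in the nearest arch, 1-628, and this gap was 0.802 of the range of the group, above the limit of 0.71 (Dixon's, for 5 values). Arch 3-604 held 9 reads of *Trim29* where the others held 14 to 17, and chance alone gives about 2.6 such groups among 52.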

How the results depend on the processing

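All 169 recomputed log2 fold changes of the 9 members lay within 1 SD of the reported values. That SD is of log2 CPM between arches of a genotype (between 0.238 and 0.619 by member). It exceeds the SE of each reported value and the refits share arches, so the limit is a loose one. Over all genes tested, deviations from the genotype mean correlated at between -0.24 and 0.42 (mean 0.105) in the 5 same-numbered pairs of arches. In the other 20 pairs they correlated at -0.03 on average. The label numbers were therefore not taken to pair the arches, and whether they mark litters is not stated. With the number as a replicate block, the SE was smaller for *Krt7*, *Krt8*, *Krt18*, *Krt19* and *Krt15*. It was larger for *Krt5*, *Krt14*, *Krt17* and *Trim29*. For *Krt8* it was 0.113 against 0.195 without the block, and for *Krt18* 0.0935 against 0.188. The numbers 604 and 628 held a *Grhl2*-/- arch alone, so the block compares genotypes within 566, 568 and 588. Under the replicate block *Trim29* stood at -3.91 on the log2 scale, *Krt7* at -1.498 (SE 0.210, against 0.260 without the block), *Krt15* at -1.49 and *Krt14* at 0.44. Under it 69 genes were called lower and 60 higher. Among them were 1 member (*Trim29*, with *Krt7* and *Krt5* no longer called), 0 keratins, 0 other intermediate filament genes, 5 keratin anchors lower and 1 higher, 3 surface epithelial regulators and 1 stratification gene. Without the wild-type arches 1-566 and 1-568 together, 90 genes were lower and 19 higher, with 1 member, 0 keratins, 0 other intermediate filament genes, 1 keratin anchor higher and 1 stratification gene lower. DESeq2 called 553 lower and 520 higher, and an FDR of 0.05 gave 564 and 559. Both gave 2 surface epithelial regulators higher and, in the TRIM family, 2 lower and 1 higher, and the FDR of 0.05 gave 1 *Trim29* partner lower. Quality weights called 204 genes higher. A minimum of 1 CPM in 5 arches removed *Krt5* and *Krt17* from the test and left 1 keratin, 3 surface epithelial regulators and 1 stratification gene lower. Leaving out each arch in turn gave between 110 (without wild-type 8-568) and 249 (without *Grhl2*-/- 1-588) genes lower and between 42 (without wild-type 8-568) and 143 (without *Grhl2*-/- 2-566) higher, between 1 and 3 members lower, between 0 and 2 keratins lower, between 0 and 1 other intermediate filament genes higher, between 1 and 2 keratin anchors higher, between 1 and 2 stratification genes lower and between 1 and 2 TRIM family genes lower. The cause was not tested. No scaling moved the median of all genes by more than 0.0179 on the log2 scale. Depth limits *Krt5* and *Krt17*, which had at most 20 and 11 reads in an arch.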
